A study of Mus musculus with 384 samples.

Results

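Single basal cells from mouse mammary glands in which luminal cells had been ablated were compared with single basal cells from wild-type (WT) glands. The cells were the wells labelled as basal under either condition, kept when they held 100000 or more gene reads and 1000 or more genes, and no more than 20% of reads from mitochondrial genes. The limits left 71 of 91 ablated basal and 44 of 50 WT basal wells, 115 of the 319 single cells kept in the whole series of 384 wells. All groups carry the same strain label, K8rtta/TetO-DTA/K5CreER/Rosa-Tomato on a mixed background. In such mice a keratin 8 promoter drives the doxycycline-dependent transactivator rtTA, which turns on diphtheria toxin A in keratin 8 cells, while the tamoxifen-inducible K5CreER marks keratin 5 cells and their progeny with Tomato. The ablated glands received 0.2 mg doxycycline by injection into the ducts and were taken 1 week later, and for WT glands the labels give no injection. Loss of luminal cells, the injection itself, the drug and the choice of mice cannot be told apart in this design. Cells were sorted as Tomato-positive and negative for CD140a, CD45 and CD31, with CD29 and EpCAM setting the gates. The labels give no age, no tamoxifen schedule and no animal for any cell, so each group was counted as 1 sample and nothing was tested.

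The mammary epithelium has an inner luminal layer and an outer basal layer. Basal cells, also called myoepithelial cells, carry keratins 5 and 14 and the transcription factor p63, contract in response to oxytocin to eject milk, and lie on a basement membrane of type IV collagen, laminins, nidogen and perlecan that they help to lay down. Basal cells can give rise to luminal cells when transplanted or when luminal cells are lost, which is the setting of this experiment.

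Ablated basal cells held 153340 to 2143906 reads in genes per cell (median 677373) and WT basal cells 399036 to 2448806 (median 978494). Levels are reads pooled over the cells of a group given as counts per 1000000 reads in genes (CPM), with exact Poisson 95% intervals that cover counting error only, and differences are log2 ratios of ablated over WT after 10 CPM was added to each level. A gene was measured at a mean of at least 10 CPM over both groups, which 8829 genes reached, and was called at a 2-fold difference. By that rule 1892 genes (21.4%) were higher and 1585 (18%) lower in ablated basal cells, and the median log2 ratio was 0.03, or −0.08 with TMM scaling. Counts of list members called, given below, are to be read beside the shares of 21.4% and 18%. Under all alternative settings that kept the single cells of all plate lines, 1274 genes (14.4%) stayed called higher and 708 (8.02%) lower. The cells lay on 1 plate, and only plate line E held both groups, with 9 ablated and 13 WT cells. Values from line E alone therefore stand beside the pooled ones, which include the same line E cells. Each group also had 1 library made from many cells, with 2273856 reads for ablated basal and 2824040 for WT basal cells. Line E alone put 31% of the measured genes past 2-fold higher and 23.4% lower, and the many-cell libraries 31.1% and 19.9%. Past 2-fold the same way under those settings, in line E and in the many-cell libraries were 350 genes higher (3.96%) and 123 lower (1.39%). Medians of gene lists are given over the pooled cells, with those of line E and of the many-cell libraries in brackets where they are not in the sentence, and over all measured genes these were 0.04 and 0.07. Ablated basal cells also gave more complex libraries. After every cell was thinned to 100000 reads, the median number of genes with at least 5 reads reached 1620 per ablated cell (958 to 2983) and 1219.5 per WT cell (744 to 1946), and 1850 against 1026 in line E. Shares of cells detecting a gene, counted the same way, therefore lean towards ablated cells. An alternative chosen after seeing the data kept cells with at least 1000 genes at 5 reads after thinning, 68 ablated and 34 WT. It called 1979 of 8805 measured genes higher and 1659 lower, and is not among the planned settings above. The part of the difference in complexity in the results was not tested beyond these values.

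**Figure D1:**
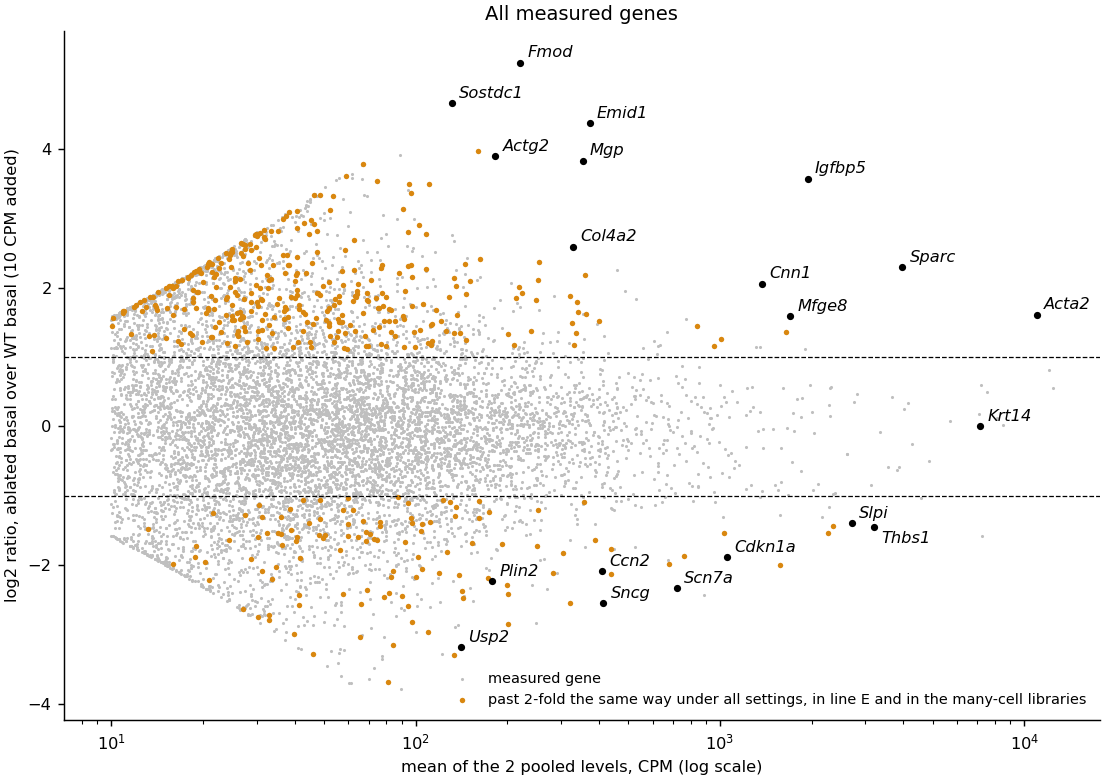
Log2 ratio of ablated over WT basal cells against mean pooled level (log scale) for the 8829 measured genes. Dashed lines mark 2-fold. Orange points are the 350 higher and 123 lower genes past 2-fold under all planned single-cell settings, in line E and in the many-cell libraries. The labelled genes, black, are among them except Cnn1 and Krt14. Fmod lies highest at 5.25, Igfbp5 and Sparc stand out among abundant genes, and Krt14 lies at 0.01.

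Both groups carried the genes of basal cells, and the markers of endothelial, immune, fat and red blood cells were absent or low in the pooled cells. Krt14 stood at 7189 CPM (7168 to 7211) in ablated and 7154 CPM (7129 to 7178) in WT basal cells, with detection in 98.6% (92.4 to 100.0) and 88.6% (75.4 to 96.2) of cells. Trp63, which encodes p63, stood at 354 and 309 CPM. The luminal keratins Krt8 and Krt18 stood at 356 and 302 CPM in ablated cells, against 449.6 and 291 CPM in WT cells. Of 10 measured luminal keratin and junction genes 3 were called higher and 4 lower, with a median of −0.14 (line E −0.32, many-cell 0.37). Epcam, an antigen of the sort, was lower at 338 against 766 CPM, with a log2 ratio of −1.16 in all cells and of −0.27 in line E, while Cd24a and Itgb1 (CD29) had ratios of 0.07 and 0.55. The endothelial, immune, adipocyte and erythroid lists had 0 measured members, with summed pooled levels of 5.71, 28.3, 0.203 and 0 CPM in ablated cells, against 1.08, 2.43, 6.50 and 0.0650 CPM in WT cells. Ptprc (CD45) had 0 reads in both groups, while Pecam1 (CD31), also excluded by the sort, stood at 4.78 against 0 CPM. Single cells reached endothelial and immune sums of 563.5 and 656 CPM among ablated cells, and of 32.3 and 221 CPM among WT cells. Of 2 measured skin keratinocyte genes 1, Krt10, was called higher, at 19.7 against 3.47 CPM. The Schwann cell list had 3 measured members and 0 calls, among them Sox10 at 157 and 161 CPM, and the pericyte list had 3 measured members, of which Vtn was called on the reads of 1 cell, without which its ratio was 0.01.

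Fibroblast markers need to be read beside the matrix genes. The 13 genes of that list summed per cell to 0 to 13337 CPM (median 379) in ablated and 3.17 to 6818 CPM (median 165) in WT basal cells. Most of the pooled level was decorin (Dcn), a small proteoglycan that binds collagen, at 1806 against 813 CPM. Lum, Dpt and Fap had 0 reads in both groups and Col1a1 stood at 5.46 against 0.953 CPM. Pdgfra, which encodes the CD140a that the sort excluded, stood at 75.1 against 45.2 CPM and was detected in 8.45% and 2.27% of cells. Of 6 measured members, Dcn and Col1a2 were called higher and Dpep1 and Pdgfrb lower, and with the top cell of each gene left out the ratio of Pdgfrb was −0.03. The median of the list was −0.16 (line E 0.08, many-cell 2.09), and in the many-cell libraries 4 of the 6 were past 2-fold higher and 0 lower. The part of fibroblast RNA in the matrix results, in the single cells and in the many-cell libraries, was not tested beyond these values.

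Of 19 measured genes of the contractile list 9 were called higher and 0 lower in ablated basal cells, 6 of the 9 stayed called under every alternative on the single cells, and the median was 0.66, with 0.94 in line E and 0.85 in the many-cell libraries, where 8 of the 19 were past 2-fold higher and 3 lower. Acta2 (smooth muscle α-actin, ENSMUSG00000035783.8, chr19:34241090-34255590, GRCm38), the actin of the contractile fibres, stood at 43.9 to 37363 CPM per cell (median 12725) in ablated basal cells and at 57.6 to 19897 CPM (median 3149.7) in WT basal cells. The groups overlapped, but 21 of 71 ablated cells lay above every WT cell and 38 of 44 WT cells lay below the ablated median. Pooled, Acta2 was 3.06-fold higher, at 16591 CPM (16559 to 16624) against 5422 CPM (5401 to 5443), with ratios of 2.45 in line E and 1.53 in the many-cell libraries. The whole contractile list summed to 34807 against 16148 CPM pooled, so Acta2 made up a large part of the sum.

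Calponin 1 (Cnn1), an actin- and calmodulin-binding protein of smooth muscle, was near 0 in many WT cells. It had a median of 1362 CPM per ablated cell (1.69 to 7524) and of 29.9 CPM per WT cell (0.956 to 3321), with detection in 83.1% (72.3 to 91) of ablated and 47.7% (32.5 to 63.3) of WT cells. Its pooled levels were 2218 and 524 CPM, with a log2 ratio of 2.06 in all cells and of 0.85 in the many-cell libraries. Transgelin (Tagln), another actin-binding protein, stood at 299.8 against 77.9 CPM, with 23 of 71 ablated cells above every WT cell. The myosin light chain Myl9 (2382 against 920.4 CPM, ratio 1.36) and its kinase Mylk (1323 against 585 CPM, ratio 1.16) were called higher in line E and in the many-cell libraries too. Tropomyosin 1 (Tpm1) had a ratio of 1.15 that was 0.37 in the many-cell libraries. Actg2, smooth muscle γ-actin, stood at 351 against 14.2 CPM, a ratio of 3.90, but its sequence is close to that of Acta2 and reads may be split between them. Des and Synpo2 were the other calls, and Des had a ratio near 0 without its top cell. The heavy chain Myh11 (0.66) and filamin Flna (0.57) were below the call, and the oxytocin receptor Oxtr had a ratio of −0.69.

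The CArG box, the site of serum response factor in contractile gene promoters, was searched for as its strict form on both strands in RefSeq promoter windows of 300 bases (250 before to 50 after the start, GRCm38.p6). It was in 2 of the 17 contractile genes with a window, Myl9 and Vcl, and in 1.81% of all 27025 genes with one. The Myl9 window is shown because Myl9 was called in all 3 comparisons, with the box in capitals (chr2:156775214-156775513, plus strand).
Myl9: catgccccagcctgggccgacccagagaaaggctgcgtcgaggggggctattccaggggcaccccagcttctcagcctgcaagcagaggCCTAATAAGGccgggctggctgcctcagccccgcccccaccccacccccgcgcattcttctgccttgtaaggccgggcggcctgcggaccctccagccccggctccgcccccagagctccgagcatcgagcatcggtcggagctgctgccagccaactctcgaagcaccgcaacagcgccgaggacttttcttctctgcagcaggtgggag
Vcl, which encodes vinculin, had a ratio of 0.42. Of the SRF cofactor and actin regulator list, 3 of 19 measured genes were called higher and 2 lower, with a median of 0.34 (line E 0.70, many-cell 0.12). The 3 higher genes were profilin 1 (Pfn1, 488 against 186 CPM), calponin 2 (Cnn2, 1156 against 387 CPM) and the LIM-domain protein Fhl2 (129.8 against 33.2 CPM). The SRF cofactor gene Mrtfa was lower at 3.95 against 30.2 CPM, as was Tagln2, whose ratio of −1.08 was −0.06 in line E.

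**Figure D2:**
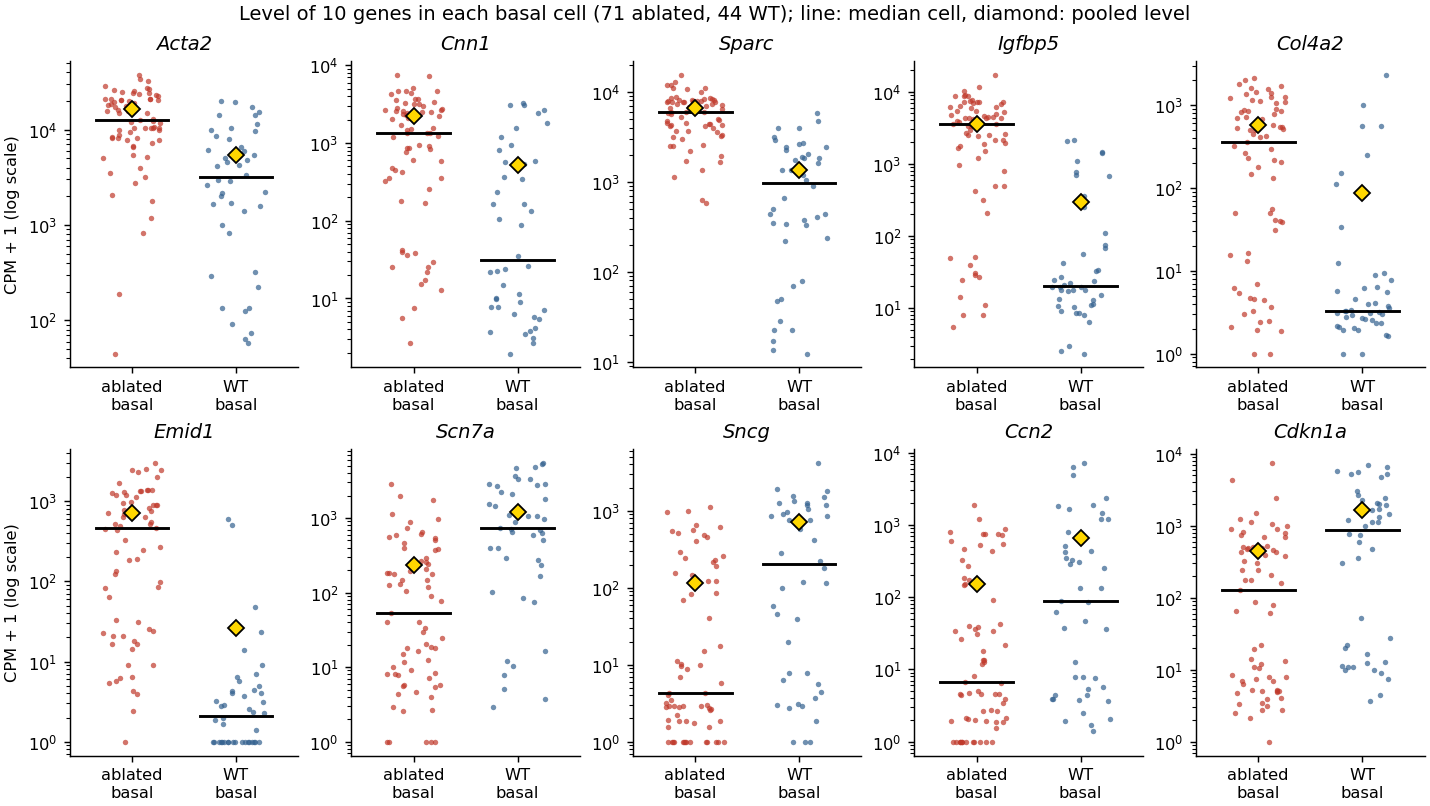
CPM + 1 (log scale) of 10 genes in each of 71 ablated basal (left) and 44 WT basal (right) cells; lines are median cells and diamonds pooled levels. Acta2, Cnn1, Sparc, Igfbp5, Col4a2 and Emid1 are higher and Scn7a, Sncg, Ccn2 and Cdkn1a lower in ablated cells, and several genes split into cells at high and at near-zero levels in both groups.

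Most measured collagens and linkers of the basement membrane were called higher, in a list written, like the others, with earlier results of these data known. Of 9 measured members 7 were called higher and 0 lower, all 7 stayed called under every alternative on the single cells, and the median of 1.81 was 2.24 in line E and 2.22 in the many-cell libraries. Summed over the list, ablated cells held 9.08 to 6190.5 CPM (median 2026) and WT cells 6.98 to 3984 CPM (median 374), with 13 of 71 ablated cells above every WT cell and 39 of 44 WT cells below the ablated median. By plate line, medians were 2471, 3210, 1597, 1111 and 1330 CPM in ablated lines E to I and 360, 229 and 385 CPM in WT lines C to E, so the ablated lines differed among themselves.

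Col4a2, a chain of the main type IV collagen network, had a median of 356 CPM per ablated cell (0 to 2137) and of 2.29 CPM per WT cell (0 to 2303). It was detected in 67.6% (55.5 to 78.2) of ablated and 15.9% (6.64 to 30.1) of WT cells, at pooled levels of 571 and 86.4 CPM and a ratio of 2.59. Its partner chain Col4a1 stood at 551 against 172 CPM, a ratio of 1.62. The genes are neighbours on opposite strands of chromosome 8, and their promoter windows overlap by 78 bases. The Col4a2 window is shown for that reason (RefSeq, GRCm38.p6, chr8:11312555-11312854, plus strand), with the bases it shares with the Col4a1 window in capitals.
Col4a2: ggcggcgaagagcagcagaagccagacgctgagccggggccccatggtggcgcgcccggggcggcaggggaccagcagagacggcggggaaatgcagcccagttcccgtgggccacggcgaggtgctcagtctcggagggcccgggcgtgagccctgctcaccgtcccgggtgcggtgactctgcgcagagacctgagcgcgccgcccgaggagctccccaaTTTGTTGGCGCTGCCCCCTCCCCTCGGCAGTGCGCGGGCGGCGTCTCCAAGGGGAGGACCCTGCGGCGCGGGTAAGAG
Both genes lay near 0 in the luminal comparison, with ratios of 0.14 and 0.02 in ablated over WT luminal cells. Col4a5, on the X chromosome and a chain of a separate type IV network, had the largest ratio of the list at 2.77 (196 against 20.2 CPM). Nidogen 1 (Nid1), which links laminin to collagen IV, stood at 153 against 31.9 CPM, and Col18a1, the core of a heparan sulfate collagen, at 114 against 25.5 CPM. Agrin (Agrn) stood at 339.8 against 91.6 CPM, with a ratio of 0.62 in the many-cell libraries. Frem2, a basement membrane protein, stood at 33 against 0.0866 CPM, in few cells. Perlecan (Hspg2) missed the call at 0.98.

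Of 15 measured laminin and hemidesmosome genes 2 were called higher and 0 lower, and the median was 0.15 (line E 0.21, many-cell 0.47). Both calls were laminin chains, Lamb1 at 236 against 51 CPM and Lamc1 at 245 against 79 CPM, with ratios of 0.88 and 0.65 in the many-cell libraries, below the call. The hemidesmosome laminin chains Lama3 and Lamb3 had ratios of 0.15 and 0.56, and their integrin receptor genes Itga6 and Itgb4 had ratios of 0.54 and −0.03. Among integrins and focal adhesion genes 2 of 15 were called higher and 3 lower, with a median of 0.01 (line E 0.33, many-cell 1.05), and in the many-cell libraries 8 were past 2-fold higher and 1 lower. Zyxin (Zyx) stood at 236 against 84.4 CPM and the integrin chain Itgb3 at 45.1 against 0.801 CPM. The lower calls Ptk2, Itga1 and Itga5 were not called in line E, where their ratios were −0.05, 1.40 and 0.13.

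**Figure D3:**
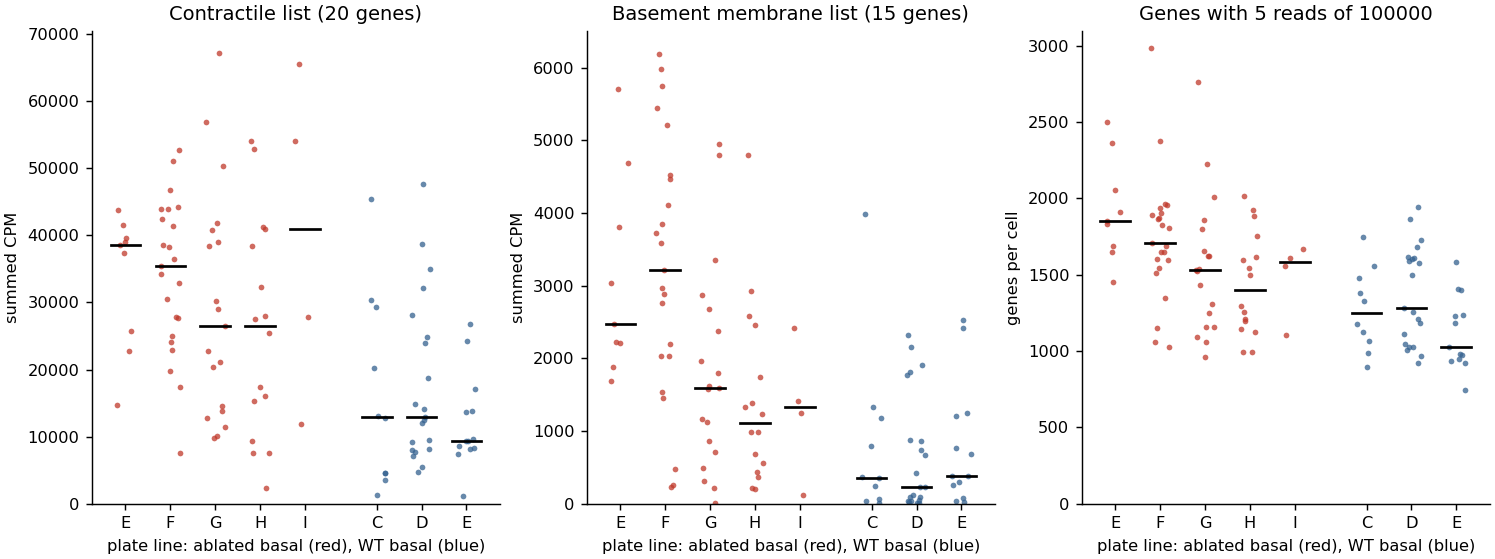
Per-cell sums of the contractile and basement membrane lists (CPM) and genes with 5 reads of 100000, by plate line, for ablated basal (red, left) and WT basal (blue, right) cells; lines are medians. In line E, which held both groups, contractile median sums were 38588 against 9399 CPM and basement membrane ones 2471 against 385 CPM. Abundant genes, such as Acta2, weigh most in these sums, and the median log2 ratio of the contractile list in line E was 0.94.

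The list of fibrillar and associated collagens and their modifying enzymes had 7 of 12 measured genes called higher and 3 lower. In line E 4 of the 12 were past 2-fold higher and 1 lower, beside 31% and 23.4% of all measured genes. The median of 1.44 was 0.33 in line E and 0.94 in the many-cell libraries. Among cells with at least 1000 genes at 5 reads after thinning it was 0.88. Col16a1, a collagen found along fibrils and near basement membranes, stood at 599 against 201 CPM and was detected in 81.7% and 43.2% of cells. Col7a1, which forms the anchoring fibrils under the basement membrane, stood at 237 against 55.5 CPM, and Serpinh1 (Hsp47), the collagen chaperone, at 343 against 96.8 CPM. Col5a1, Col5a2, Col6a1 and Col1a2 were the others, of which Col5a1 stood at 50.6 against 0.0217 CPM. The lower genes were enzymes that hydroxylate collagen, P4ha1 (29.7 against 95.3 CPM), P4ha2 and Plod2. P4ha2 had a ratio near 0 without its top cell, and Plod2 was higher in the many-cell libraries, at 3.05.

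The largest ratio among the measured genes was that of a matrix gene outside the basement membrane. Fibromodulin (Fmod, ENSMUSG00000041559.7, chr1:134037254-134048277), a small proteoglycan that binds fibrillar collagen, stood at 0 to 2871 CPM per ablated cell (median 6.09) and 0 to 10.7 CPM per WT cell (median 0.979). It was detected in 42.3% (30.6 to 54.6) of ablated and 2.27% (0.0575 to 12) of WT cells, and 35 of 71 ablated cells lay above every WT cell. Pooled, it stood at 439.8 CPM (435 to 445) against 1.84 CPM (1.47 to 2.28), and in luminal cells its ratio was −0.04. Versican (Vcan), a large hyaluronan-binding proteoglycan, followed at 184 against 8.84 CPM. With Dcn these were the 3 of 14 measured proteoglycans called higher, and Gpc3 was called lower with a ratio that turned to 2.36 in line E and 1.61 in the many-cell libraries. The proteoglycan median was 0.33 (line E 0.65, many-cell 0.78).

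Matricellular and other matrix glycoproteins split, with 6 of 11 measured genes called higher, 2 lower and a median of 1.23 (line E 2.15, many-cell 1.29). Sparc, which binds collagen and calcium, had 574 to 15346 CPM per ablated cell (median 6017) and 11.3 to 5840.0 CPM per WT cell (median 979). All 44 WT cells lay below the ablated median, and 38 of 71 ablated cells lay above every WT cell. Pooled, Sparc was 4.93-fold higher, and the many-cell libraries held 9669.9 against 1411 CPM. Mgp, an inhibitor of calcification, stood at 669 against 37.8 CPM, fibulin 2 (Fbln2) at 533 against 146 CPM and Ccn4, a secreted protein known as a Wnt target, at 173 against 16.2 CPM. Fibrillin 1 (Fbn1) stood at 147 against 8.95 CPM, but its ratio was −0.67 in the many-cell libraries. Ccn1 was higher at 1.23 and its relative Ccn2 lower at −2.09, both of them known targets of the coactivator YAP, and Ccn1 was −0.56 in the many-cell libraries where Ccn2 was −2.83. Thrombospondin 1 (Thbs1) was lower at 1721 against 4710.5 CPM. The YAP and TAZ list as a whole had 3 of 16 genes called higher, among them F3 and Nt5e, 2 lower and a median of 0.25 (line E 0.20, many-cell 0.09); its other lower call, Amotl2, was 2.67 in the many-cell libraries.

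Matrix proteases and inhibitors were called higher in 5 of 17 measured genes and lower in 3, with a median of −0.24 (line E −0.02, many-cell 0.00). The gelatinase Mmp2 stood at 782 against 194 CPM, detected in 76.1% and 29.5% of cells, although its ratio was 0.56 in line E. The sheddase Adam10 stood at 128 against 26.3 CPM and Adamts9 at 40.9 against 0.347 CPM. The inhibitor Slpi was lower at 1489 against 3924 CPM, with ratios of −4.73 in line E and −4.95 in the many-cell libraries. Timp1 was lower at 3.49 against 84.3 CPM, with both many-cell levels near 0 and a ratio of 0.00. The other calls were Adamts4 and Adamts5 (higher) and Mmp11 (lower), each on few cells.

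Among basal keratins and transcription factors 3 of 14 measured genes were called higher and 0 lower, with a median of 0.22 (line E 0.35, many-cell 0.76). The share called higher, 21.4%, was that of all measured genes. Of the 3 calls 1 stayed under every alternative on the single cells. Keratin 15 (Krt15), a keratin of basal and progenitor cells in skin, stood at 597 against 124 CPM. The share of cells detecting it was 33.8% (23 to 46) among ablated and 6.82% (1.43 to 18.7) among WT cells. It was called in line E at 2.15 and in the many-cell libraries at 5.09. Krt5 stood at 884 against 388 CPM, but its ratio of 1.17 was −0.96 in the many-cell libraries. The Wnt-pathway repressor Tcf7l1 was the third call, at 60.3 against 17.5 CPM and 0.20 in line E. Krt17 had a ratio of −0.50.

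**Figure D4:**
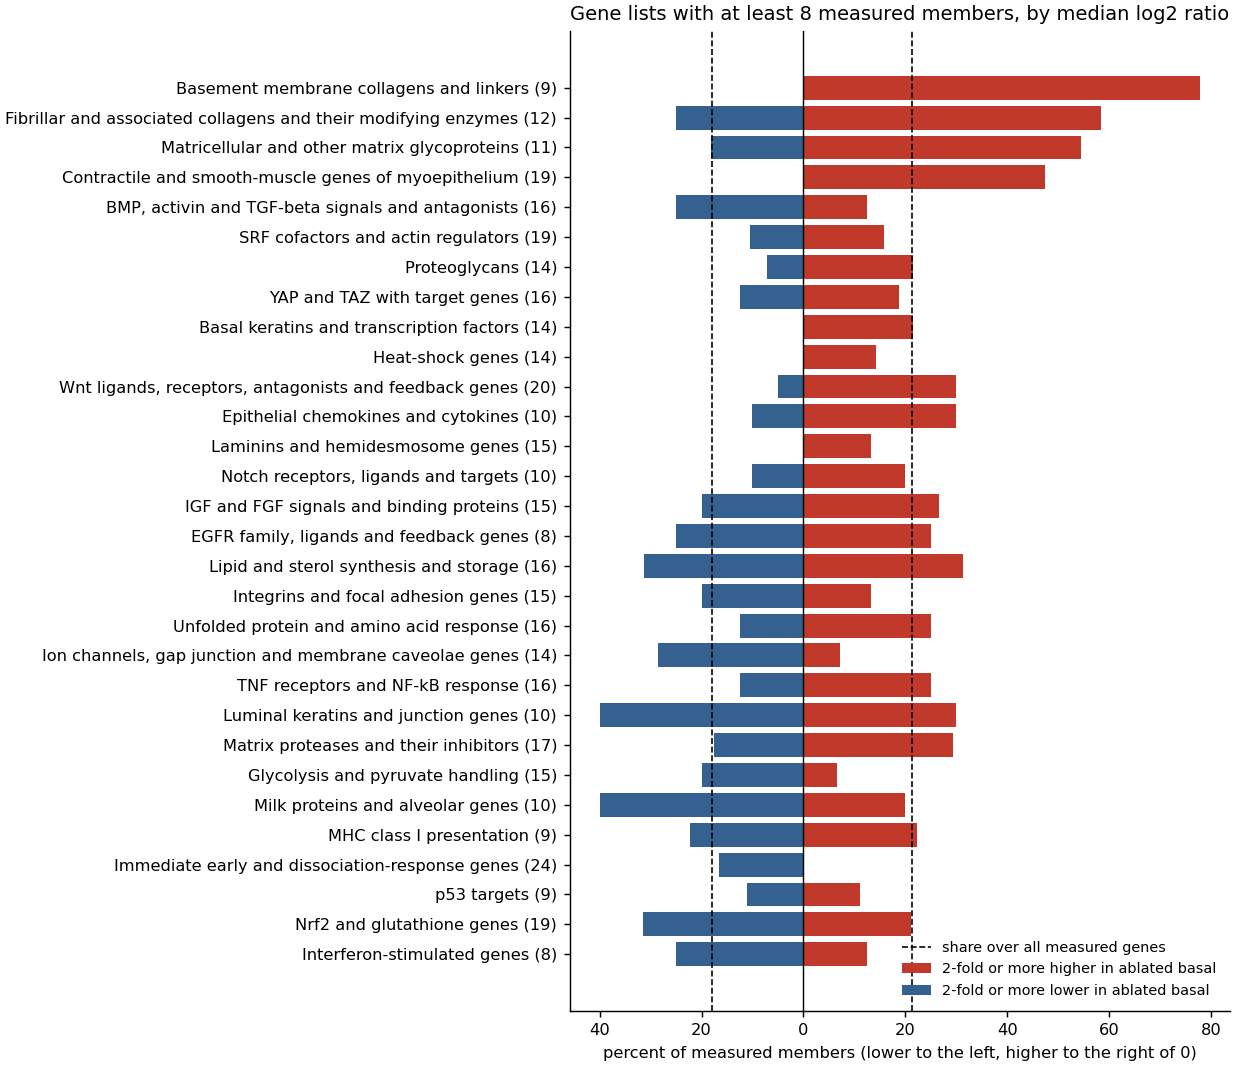
Percent of measured members at least 2-fold higher (red, right of 0) or lower (blue, left of 0) in ablated basal cells for lists with at least 8 measured members, given in brackets; dashed lines are the shares over all measured genes, 21.4% and 18%. The basement membrane, fibrillar collagen, matricellular and contractile lists lie farthest beyond the 21.4% line, and the immediate early list has 0 members called higher. All lists were written with earlier results of these data known.

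Wnt pathway genes were called higher in 6 of 20 measured members and lower in 1, with a median of 0.20 (line E −0.79, many-cell 0.18). Among antagonists, Sostdc1, a secreted inhibitor of Wnt and BMP signals, stood at 0 to 2289 CPM per ablated cell and 0 to 15.7 CPM per WT cell. It was detected in 33.8% (23 to 46) of ablated cells and in 0 of 44 WT cells, and its pooled levels were 262 and 0.780 CPM. Sfrp1, another secreted antagonist, was lower at 129 against 482 CPM. The feedback genes Rnf43 (131 against 28.7 CPM) and Nkd1 (53.7 against 0.303 CPM) were higher, as were the receptor Lgr6, which binds R-spondins, at 249.9 against 41.4 CPM and the ligand Wnt6 at 34.7 against 2.38 CPM. The remaining call, the receptor Fzd8, had a ratio of 0.65 once its top cell was left out. The feedback gene Axin2 was not measured, at 8.27 against 4.03 CPM.

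IGF and FGF signals were called higher in 4 of 15 measured genes (26.7%) and lower in 3 (20%), beside 21.4% and 18% of all measured genes. The list median was 0.09 (line E 0.51, many-cell 1.17). The 4 higher genes were Igfbp5, Igfbp7, Igfbp4 and Htra1, while Igfbp6 was among the lower ones. Igfbp5 had 4.43 to 17077 CPM per ablated cell (median 3522) and 1.35 to 2162 CPM per WT cell (median 19.4). All 44 WT cells lay below the ablated median and 45 of 71 ablated cells lay above every WT cell. Pooled, Igfbp5 was 12.3-fold higher, at 3592 CPM (3577 to 3608) against 293 CPM (288 to 298), with ratios of 6.50 in line E and 5.89 in the many-cell libraries. Igfbp7 (763 against 152 CPM) and Igfbp4 (87.6 against 0.238 CPM) had ratios of 0.35 and 0.20 in the many-cell libraries, below the call. The secreted protease Htra1, which cleaves IGF-binding proteins, stood at 360.2 against 88 CPM. The receptor Fgfr2 was lower at 97.9 against 294 CPM but not in line E (−0.04) or in the many-cell libraries (1.17), and Igfbp6 and Fgf2 rested on 1 cell each.

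In the other signalling lists the calls went both ways. EGFR family genes had 2 of 8 called higher and 2 lower (median 0.09, line E 0.36, many-cell 0.09). The ligand Nrg1 was higher at 132 against 39.5 CPM, the feedback inhibitor Errfi1 lower at 1271 against 3438 CPM and the ligand Hbegf lower at 68.9 against 284 CPM, while Erbb3 rested on few cells. BMP, activin and TGF-β genes had 2 of 16 called higher and 4 lower (median 0.42, line E −0.28, many-cell −0.08). The ligand Tgfb3 stood at 85 against 299 CPM, the inhibitory Smad7 at 19.9 against 93.1 CPM and the BMP target Id3 at 327 against 726 CPM, all lower, whereas Bmp7 was higher at 189 against 78.9 CPM. Notch genes had 2 of 10 called higher, the ligand Jag2 and the receptor Notch1, and 1 lower, with a median of 0.11 (line E 0.26, many-cell −1.30). Jag2 and Notch1 had ratios of −1.01 and −1.02 in the many-cell libraries. Rbpj, the DNA-binding factor of the pathway, stood at 16.5 against 250.1 CPM, and its ratio of −3.30 was −1.01 without 1 cell.

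TNF receptors and NF-κB response genes had 4 of 16 called higher and 2 lower (median −0.13, line E 0.90, many-cell 0.34). The TWEAK receptor Tnfrsf12a was lower at 270.2 against 1500.1 CPM, with a ratio of −2.43 that was −0.58 in the many-cell libraries, and the decoy receptor Tnfrsf11b was higher at 74.1 against 0.0866 CPM. The neutrophil chemokine Cxcl1 was higher at 584 against 204 CPM, with 0.30 in the many-cell libraries. Of 10 chemokines and cytokines measured 3 were called higher and 1 lower (median 0.18, line E −0.13, many-cell 0.56), the lower one being Cxcl16 at 53.2 against 443 CPM and 0.65 in the many-cell libraries. Interferon-stimulated genes had 1 of 8 called higher and 2 lower (median −0.61, line E 0.77, many-cell −0.10), and with each gene's top cell left out that median was −0.02. Gbp2, among the lower, was 1.00 in line E. MHC class I genes had 2 of 9 called each way (median −0.26, line E 0.09, many-cell −0.54), and H2-D1, whose copies in the locus are much alike, stood at 1243 against 3087 CPM.

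Immediate early and dissociation-response genes had 0 of 24 called higher and 4 lower, with a median of −0.27 (line E −0.50, many-cell −1.01), and Fos stood at 8569.5 and 8426 CPM. The 4 were the transcription factors Cebpb (36.3 against 199.6 CPM), Klf2 and Jund and the antiproliferative Btg2 (889 against 1809.8 CPM). Heat-shock genes had 2 of 14 called higher, Hsph1 and Dnajb1, with 0.00 and −0.65 in the many-cell libraries, and 0 lower (median 0.21, line E 0.49, many-cell −0.46). Unfolded protein response genes had 4 of 16 called higher, among them the endoplasmic reticulum enzymes Pdia3 and Pdia4, and 2 lower, among them Xbp1 at 103 against 478 CPM (median 0.00, line E −0.42, many-cell −0.15). Of 9 p53 targets 1 was called each way (median −0.29, line E −1.10, many-cell 0.39). The cell cycle inhibitor Cdkn1a (p21) was lower, with a median of 128 CPM per ablated cell (0 to 7436) and 878 CPM per WT cell (2.69 to 7054). Its pooled ratio was −1.89, with −2.55 in line E and −2.60 in the many-cell libraries. Bax, which promotes cell death, was higher at 80.4 against 10.2 CPM. Of 20 cell cycle genes 4 were measured and all 4 were called, with Ccnd1, Ccnd2 and Cdc20 higher and Pcna lower. The median of 1.44 was 0.45 in line E and 0.34 in the many-cell libraries. In line E 1 of the 4 was past 2-fold higher and 1 lower, and in the many-cell libraries 1 higher and 0 lower. The 3 higher genes stayed called under every alternative on the single cells, but Pcna did not. Cdc20 had a ratio of 0 in line E and in the many-cell libraries. The proliferation marker Mki67 stood at 5.27 against 0.433 CPM and Top2a had 0 reads in both groups.

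Nrf2 and glutathione genes were called higher in 4 of 19 measured members and lower in 6, with a median of −0.41 (line E −0.68, many-cell −0.82). Ggt1, which cleaves glutathione outside the cell, was among the higher genes at 310.2 against 10.5 CPM, with a log2 ratio of 3.97 in all cells and of 5.19 in line E and 5.52 in the many-cell libraries. The peroxidase Gpx3 was lower at 30.7 against 115 CPM and the thioredoxin reductase Txnrd1 at 192 against 762 CPM, with −3.62 and 0.02 in the many-cell libraries. Hmox1 and Srxn1 were called lower but Hmox1 was 3.97 in line E and Srxn1 3.74 in the many-cell libraries. Lipid genes had 5 of 16 called each way (median 0.02, line E 0.34, many-cell −0.12). The lipid droplet coat gene Plin2 was lower at 56.3 against 301 CPM, while Scd2, which makes monounsaturated fatty acids, was higher at 126 against 30.7 CPM. Glycolysis genes had 1 of 15 called higher and 3 lower (median −0.25, line E 0.13, many-cell 0.57), among them the glucose transporter Slc2a1 at 149 against 355 CPM and Pdk4, which restrains pyruvate oxidation, at 150.5 against 490.0 CPM. Cytosolic ribosomal protein genes had a median of 0.16 over 68 genes.

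Ion channel, gap junction and caveolae genes had 1 of 14 called higher and 4 lower, with a median of −0.00 (line E 0.34, many-cell −0.02). Scn7a, an atypical sodium channel gene, had a median of 51.8 CPM per ablated cell (0 to 2844) and 725 CPM per WT cell (1.94 to 5458). It was detected in 52.1% (39.9 to 64.1) of ablated and 84.1% (69.9 to 93.4) of WT cells, and 7 of 71 ablated cells lay above the WT median. Sncg, which encodes γ-synuclein, stood at 113 CPM (111 to 116) against 714 CPM (706 to 722). Both were lower in line E and in the many-cell libraries as well. Caveolin 1 (Cav1) was higher at 1.63 but −1.13 in the many-cell libraries.

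Milk protein and alveolar genes had 2 of 10 called higher and 4 lower, with a median of −0.25 (line E −0.18, many-cell 0.19). Mfge8, a secreted glycoprotein of milk fat globules that marks dying cells for uptake, was higher at 2561 against 845 CPM, whereas Lcn2 (lipocalin 2) was lower at 2996 against 6128 CPM and Plet1 at 25.7 against 249 CPM, although the Plet1 ratio was 0.21 in line E. Of 6 hormone-responsive genes 1, Pgr, was called higher and 1, Prlr, lower (median −0.01, line E −0.21, many-cell 1.16), and Prlr rested mainly on 1 cell.

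Across the 15 highest-ranked genes, which needed 50 CPM and detection in 25% of cells of the higher group and a 20-point difference in detection, 11 were past 2-fold in line E and in the many-cell libraries as well. The line E cells were also part of the pooled cells that ranked the genes. Of all 1892 genes called higher, 1094 were past 2-fold higher in line E and 716 in the many-cell libraries. Of all measured genes 31% were past 2-fold higher in line E and 31.1% in the many-cell libraries. The 11 were Fmod, Sostdc1, Emid1, Ggt1, Actg2, Mgp, Igfbp5, Vcan, Nit2, Acp5 and Col4a5. Emid1, which encodes a secreted EMI-domain protein, stood at 720.3 against 25.3 CPM, and 70 of 71 ablated cells lay above the WT median. Nit2, an amidase, stood at 172 against 10.7 CPM and Acp5, tartrate-resistant acid phosphatase, at 189 against 16.4 CPM. The other 4 were Mtf2, Ppp2r5c, Fbn1 and Rnpep, with ratios of −0.51, −0.10, −0.67 and 0.35 in the many-cell libraries. The same detection rule passed 321 genes higher but 12 lower, of which 9 were past 2-fold. Of those 9, Usp2, Sncg, Scn7a and Ccn2 were past 2-fold in line E and in the many-cell libraries too. Of all 1585 genes called lower, 751 were past 2-fold lower in line E and 376 in the many-cell libraries, beside 23.4% and 19.9% of all measured genes. Usp2, which encodes a deubiquitinase, stood at 19.9 CPM (18.7 to 21) against 262 CPM (257 to 267), with 0 reads in 41 of 71 ablated and 8 of 44 WT cells. Crybb3, a lens crystallin gene, and Acsl4, which activates arachidonic acid, had ratios of 0.81 and 0.53 in the many-cell libraries.

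**Figure D5:**
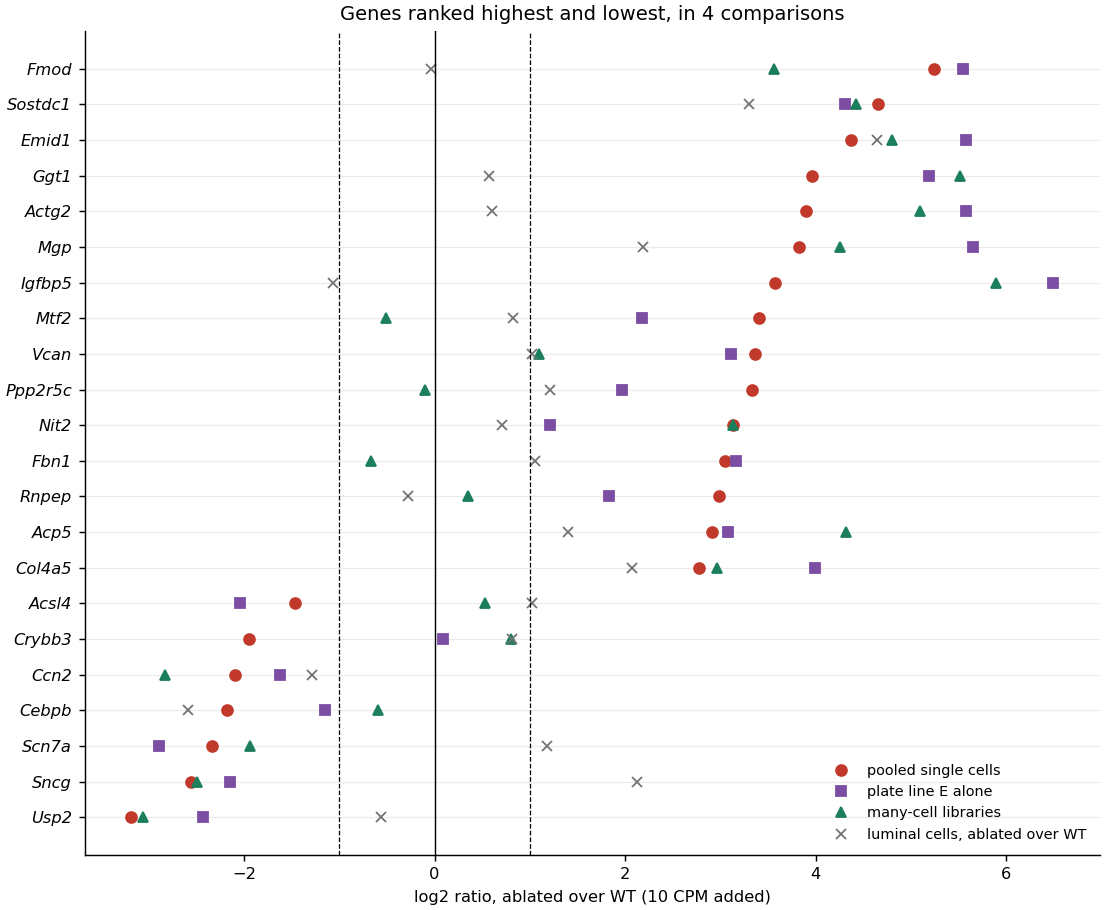
Log2 ratio, ablated over WT, of the 15 highest-ranked genes and of 7 lower genes in pooled basal cells (circles), plate line E (squares), many-cell libraries (triangles) and luminal cells (crosses); dashed lines mark 2-fold. Of the 15 higher genes, 8 were also past 2-fold higher in luminal cells and 1, Igfbp5, was past 2-fold lower at −1.07. Among the 12 lower genes that passed the detection rule, 3 were past 2-fold lower in luminal cells. Another 3 were past 2-fold higher there, among them Sncg at 2.12.

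The same ratio was taken between 76 ablated and 43 WT luminal cells, which share no well with the basal groups, to show which basal differences had a like value in luminal cells. Of the measured genes 1295 (14.7%) were at least 2-fold higher and 409 (4.63%) lower in ablated luminal cells. Of the 350 genes higher in all 3 basal comparisons 89 were at least 2-fold higher in ablated luminal cells, and of the 123 lower genes 10 were at least 2-fold lower. Emid1 was among these higher genes, with a luminal ratio of 4.64, as were Sparc at 4.33 and Sostdc1 at 3.30. The contractile list had 11 of its 19 genes past 2-fold higher in luminal cells and 1 lower, with a median of 1.22, Acta2 at 2.67 and Cnn1 at 2.24. Of the 14 basal keratins and transcription factors 11 were past 2-fold higher there and 0 lower (median 2.09), and of the 9 basement membrane genes 3 were higher and 0 lower (median 0.90). Whether these differences differ between the layers was not tested, and the median of all genes was 0.22 in the luminal comparison.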

How the data were processed

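RNA of single sorted cells was sequenced with a modified Smart-seq2 method, per the labels' protocols. The authors deposited raw read counts per gene and well, not normalized. HTSeq 0.6.0, STAR 2.5.2b, cutadapt 1.13, Seurat and the GRCm38 build are listed in the submitters' processing notes without roles, and strandedness and annotation version are not given in the sources used here. Symbols matched 49326 of 49585 gene identifiers, coordinates are from GENCODE M21 on GRCm38, and 92 spike-in sequences with 11 reads in all were not used. Ablated basal cells held 58980064 reads in genes together and WT basal cells 46165993.

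Wells were grouped by their labels. CPM were taken from reads summed over kept wells, and their 95% intervals are exact Poisson ones; shares count cells with at least 5 reads after thinning to 100000 and carry exact Clopper-Pearson 95% intervals. All basal wells left out had too few reads, and of the luminal wells 3 ablated and 3 WT had too high a mitochondrial share. No doublet caller was run, no 2 wells held identical values, and the 5 negative control wells held 7930 to 13572 reads. Named genes were the 15 largest and smallest ratios under a detection rule, up to 4 members of each of 41 lists past 2-fold with at least 20 CPM (the 2 nearest 0 where none passed), and 12 lineage and sort genes; other members were named after their values were seen. Members and lists were chosen with earlier results of these data known. Alternatives were read minima of 50000 and 200000, 10% mitochondrial reads, 2000 genes, equal cell weights, thinning, TMM (edgeR 4.0.16) and median-of-ratios scaling, 1 CPM added, omission of each gene's top cell, other low-value filters and detection limits, line E and the many-cell libraries. The steps were tested on simulated data. Python 3.11.15, numpy 2.4.6, pandas 2.3.3, scipy 1.17.1 and R 4.3.3 were used.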

Additional observations from a re-analysis of the deposited data

Results flagged for a closer look

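These genes had log2 ratios of at least 2-fold in opposite directions in basal and luminal cells, ablated over WT, and whether the ratios differ was not tested. Higher in basal and lower in luminal cells were Igfbp5 (3.57 and −1.07), Itgb3 (2.35 and −1.42), Des (1.76 and −1.35), Mfge8 (1.59 and −1.87) and Dcn (1.14 and −2.55). Lower in basal and higher in luminal cells were Timp1 (−2.80 and 2.00), Sncg (−2.55 and 2.12), Scn7a (−2.34 and 1.18), Igfbp6 (−1.86 and 1.12), Sfrp1 (−1.82 and 1.6), Acsl4 (−1.47 and 1.02), Thbs1 (−1.45 and 1.17), Slpi (−1.39 and 5.06), Plod2 (−1.32 and 1.22) and Tagln2 (−1.08 and 1.53). Des and Igfbp6 rested on 1 basal cell each, with ratios of 0.02 and −0.03 without it.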

How the results depend on the processing

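The count of genes higher in ablated basal cells, 1892, was 2840 of 7179 measured genes in line E alone, 2931 of 7247 in the many-cell libraries and 537 of 4003 at a mean of at least 50 CPM. The count of genes lower, 1585, was 624 at that minimum and 792 of 6543 when each gene's top cell was left out. Other alternatives moved either count by less than 1.5 times. The 50 CPM minimum tests fewer genes, and line E and the many-cell libraries hold fewer cells or 1 library a group; for the rest the cause was not tested. Of 156 genes named here and past 2-fold, all 156 kept their direction with other read, gene and mitochondrial limits, other scalings and 1 CPM added. The gene and mitochondrial limits removed no basal cell, as minima were 2778 and 3517 genes and maxima 9.59% and 6.66%. Adding 1 CPM cannot change a sign, and the scalings shift ratios too little to turn a 2-fold one. Those outcomes were therefore fixed in advance. With equal cell weights, thinning or the top cell left out 155 kept their direction, 140 did so in line E and 120 in the many-cell libraries. Past 2-fold stayed 140 with equal weights and 140 after thinning, 134 without the top cell, 115 in line E and 88 in the many-cell libraries. Among cells with at least 1000 genes at 5 reads after thinning, 155 kept their direction and 142 stayed past 2-fold. Genes that neither kept their direction nor turned had a ratio of 0. Those that turned in line E were Adamts5 −0.022, Col6a1 −0.022, Crybb3 0.086, Des −0.033, Erbb3 −0.0083, Fgf2 0.014, Fzd8 −0.78, Gbp2 1.00, Gpc3 2.36, Hmox1 3.97, Itga1 1.40, Itga5 0.13, P4ha2 0.49, Plet1 0.21 and Vtn −0.011. Those that turned in the many-cell libraries were Acsl4 0.53, Adamts5 −0.050, Amotl2 2.67, Cav1 −1.13, Ccn1 −0.56, Cry1 3.31, Crybb3 0.81, Cxcl16 0.66, Dnajb1 −0.65, Dpep1 0.12, Fbn1 −0.67, Fgf2 1.95, Fgfr2 1.17, Gpc3 1.61, Jag2 −1.01, Klf2 0.83, Krt5 −0.96, Mmp11 3.11, Mtf2 −0.51, Notch1 −1.02, Pdgfrb 1.57, Plod2 3.05, Ppp2r5c −0.096, Prlr 0.063, Ptk2 0.64, Srxn1 3.74 and Txnrd1 0.022. Fgf2 also turned without its top cell (0.71), with each cell weighted equally (0.39) and after thinning (0.28), and Cry1 turned to 0.62 among cells with at least 1000 genes at 5 reads after thinning, an alternative chosen after seeing the data. No paired analysis was possible because no test was run and the replicate numbers only name wells. Pooled reads set a floor of 3 reads at 0.0509 CPM in ablated and 0.0650 CPM in WT basal cells, and reads amplified with no molecular identifiers do not count independent molecules. With 1 sample a group, differences between animals cannot be told from those between conditions.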

Other observations

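Collagen IX and its neighbours in the matrix fell outside the lists and were chosen after their values were seen. All 3 collagen IX chains, which decorate collagen fibrils in cartilage, were called higher, Col9a1 at 134 against 0.477 CPM, Col9a2 at 356 against 81.1 CPM and Col9a3 at 418 against 201 CPM in ablated and WT basal cells. Their ratios in the many-cell libraries were 4.81, 5.35 and 6.35, and in line E Col9a3 was 0.77. Matrilin 2 (Matn2), an adaptor protein of the matrix, stood at 251 against 51 CPM. The growth factor Bdnf (281 against 44.4 CPM) and the cytokine Il17b (512 against 132 CPM) were higher in line E and in the many-cell libraries as well.

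Among abundant genes lower in all 3 comparisons, also picked by their values, were lamin A/C (Lmna), of the nuclear envelope, at 626 against 2533 CPM, and Tm4sf1, a membrane protein, at 1152 against 3375 CPM. Ptx3, a secreted pentraxin, stood at 86.5 against 555 CPM, the tetraspanin Tspan8 at 269.6 against 1093 CPM and Lifr, the receptor of leukemia inhibitory factor, at 194 against 682 CPM. Genes of the circadian clock were looked up because Usp2 is known to be rhythmic. Of 12 measured 3 were called higher and 5 lower, beside 21.4% and 18% of all measured genes. Some of the 17 looked up had 0 reads in most cells, as Hlf in 67 of 71 ablated and 41 of 44 WT cells. Arntl, which drives the clock, was higher at 159.7 against 65 CPM and Bhlhe41, a repressor in it, lower at 523 against 1534 CPM, both also in line E and in the many-cell libraries. Clock was higher at 149 against 33.8 CPM with a many-cell ratio of 0.97, and Cry1 was lower at −1.95 but 3.31 there. The hour at which glands were taken is not given in the labels.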
